A study of Medicago ruthenica with 9 samples.

Results

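Flavonoid and isoflavonoid synthesis was followed in the leaves of a perennial legume grown for forage, Medicago ruthenica, through 76 unigenes out of the 52457 in the deposited table. A unigene is the longest transcript of a cluster in a de novo assembly. Members were taken by text: the protein description or the SwissProt description held one of the letter strings chalcone, flavon (as in flavone, flavonol and flavonoid), isoflavon, dihydroflavonol, anthocyanidin or leucoanthocyanidin. Of 151 matches, 66 were left out as sugar-transferring enzymes or as 3AT1, an anthocyanin acyltransferase. The remaining 85 included 9 that did not reach 1 TPM in at least 3 libraries, which left the 76 members among 44538 tested unigenes. TPM, the deposited expression unit, is abundance divided by length and scaled to a common library total. The third-highest TPM, on which the minimum acts, was 0.80 for CYP75A4 (TRINITY_DN16527_c0_g6) and 0.86 for D7OMT (TRINITY_DN22620_c0_g2), just outside, and 1.03 for HI4'OMT (TRINITY_DN10191_c0_g1) and 1.07 for CHS1 (TRINITY_DN22399_c0_g6), just inside.

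RNA sequencing covered 3 groups of 3 leaf libraries from seedlings that were 4 weeks old at the start and grew 8 to a pot without added nutrients. Control plants (CK) were watered every 3 days and stayed above 80% relative soil moisture. Drought-stressed plants (DS) had no water for 15 days, down to 20% relative soil moisture, and were harvested with CK on that day. Rewatered plants (RW) were dried in the same way, watered to saturation and harvested 2 days later. RW leaves therefore differ from both CK and DS leaves in harvest day as well as in treatment. The labels call the libraries biological replicates without saying whether they came from separate plants or pots, so that a p-value refers to the spread among these libraries.

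Flavonoids start from phenylalanine. The general phenylpropanoid enzymes turn it into coumaroyl-CoA, chalcone synthase builds a chalcone from that, and chalcone isomerase closes the ring to a flavanone. From the flavanone, one set of enzymes leads to flavones and flavonols, another through dihydroflavonols to anthocyanins and proanthocyanidins, and a further set, best known in legumes, to isoflavones and the pterocarpan phytoalexins of Medicago. The products are then methylated, glycosylated or acylated, and many are stored in the vacuole.

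By branch, 22 members belonged to the entry steps (14 chalcone synthases, 4 chalcone isomerases and 4 chalcone reductases), 10 to the flavonol and flavone branch, 10 to the anthocyanin and proanthocyanidin branch, 27 to the isoflavonoid branch and 7 to decoration and remaining entries. The members came from 52 Trinity components (groups of overlapping contigs). Of these components, 17 held more than 1 member and together held 41 members, up to 7 in one. Members of a component can be copies, alleles or fragments of the same gene and can share reads, so they are not independent. Members were from 204 to 2149 bp long, with a median of 961.5 bp against 588 bp over all tested unigenes, and 20 (26.3%) were under 400 bp, against 37.8% of all tested. Their mean TPM over the 9 libraries ran from 0.888 to 575, with a median of 7.65 against 3.79 for all tested unigenes. In all 9 libraries 44 members reached 1 TPM, and 11 had a mean above 50 TPM. No sequence of a member is shown, since the table gives lengths and annotations only.

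TPM summed to nearly the same total in each library (994748 to 996266) and so does not show sequencing depth. RW replicate 2 stood apart: 5.23% of its TPM came from 3618 unigenes that reached 5 TPM there and were below 0.5 TPM elsewhere, while the like share was at most 0.182% in another library. None of the 76 members was among those unigenes, but 3 of the 9 candidates below the minimum were. Leaf genes were abundant in every library: 47 listed mesophyll markers (Rubisco small subunit, chlorophyll a-b binding and photosystem proteins) summed to 90858 to 121439 TPM in CK, 40327 to 111856 in DS and 77982 to 105798 in RW. Leghemoglobin (TRINITY_DN11582_c0_g1), the defining nodule protein, lay between 0.32 and 2.83 TPM. The 28 listed nodule markers together summed to 2447 to 2993 TPM in CK, 2607 to 5111 in DS and 1827 to 2889 in RW. In that sum DS replicates 1 and 3 exceeded every CK and RW library. Of 26 tested nodule markers 1 rose and 2 fell in DS vs. CK (3.85% and 7.69%, against 2.39% and 2.57% of all tested unigenes). Of the 43 tested mesophyll markers 1 rose and 1 fell in the same comparison (2.33% each way). At an unadjusted limma p under 0.05 with a log2 fold limit of 1, 1 was higher and 9 lower (5.34% and 8.94% of all tested). Their median log2 fold change was −0.74, against −0.19 over all tested. Markers of xylem and secondary walls, such as laccases and secondary-wall cellulose synthases, fell in DS vs. CK for 17 of 47 tested and rose for 0. The share that fell was 36.2%, against 2.57% of all tested unigenes. These are limma calls at an adjusted p under 0.05 with a fold limit of 1 on the log2 scale. At an unadjusted p under 0.05 with that fold limit, 1 was higher and 32 lower (5.34% and 8.94% of all tested). The 49 listed summed to 696 to 2248 TPM in CK, 67.9 to 433 in DS and 299 to 960 in RW. In whole leaves, fewer cells of a type and less RNA per cell cannot be told apart.

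In DS vs. CK, which asked what differed after 15 days without water, 1 member rose and 1 fell. The member that rose was CHS9, a chalcone synthase, and the one that fell carried the symbol CYP75B2 of a flavonoid hydroxylase. Called means a Benjamini-Hochberg adjusted p under 0.05 over all tested unigenes and a log2 fold change of TPM + 1 beyond 1 in size (limma, 9 libraries in 1 fit). Over all tested unigenes the same rule called 2.39% higher and 2.57% lower, against 1.32% of the members in each direction. That share is 1 unigene each way, and no test compared it with the share of all tested. The 3 DS libraries all lay above the 3 CK libraries for 7 members (8.86% of all tested) and all below for 4 members (18.1% of all tested). The median log2 fold change was −0.03 for the members and −0.19 for all tested unigenes. Median-of-ratios scaling brought the latter to −0.05 and quantile normalization to −0.04, and the median of the members was then 0.14 and 0.07, so that the sign of the members' median depended on the scaling. At an unadjusted p under 0.05 with the same fold limit, 5 members were higher and 6 lower, against 5.34% and 8.94% of all tested. Single values below are to be read against the shift of −0.19.

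RW vs. DS joins the return of water with a later harvest day, and the effects of these cannot be told apart. In it CYP75B2 rose and CHS9 fell, again 1 member in each direction. Over all tested unigenes 1.79% were called higher and 2.15% lower. At an unadjusted p under 0.05 with the same fold limit, 5 members were higher and 7 lower, against 7.07% and 4.95% of all tested. All 3 RW libraries lay above DS for 8 members (15.7% of all tested) and below DS for 9 (8.01% of all tested). The median log2 fold change was −0.05 for the members and 0.17 for all tested unigenes. In RW vs. CK, limma called 0 members higher and 0 lower, where the rule called 0% and 0.00225% of all tested. At an unadjusted p under 0.05 with the same fold limit, 2 members were higher and 6 lower, against 1.94% and 2.4% of all tested. RW lay wholly above CK for 3 members (5.35%) and wholly below for 8 (6.44%). The 3 comparisons share libraries in pairs, so that a library high in DS enters both DS vs. CK and RW vs. DS.

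**Figure D1:**
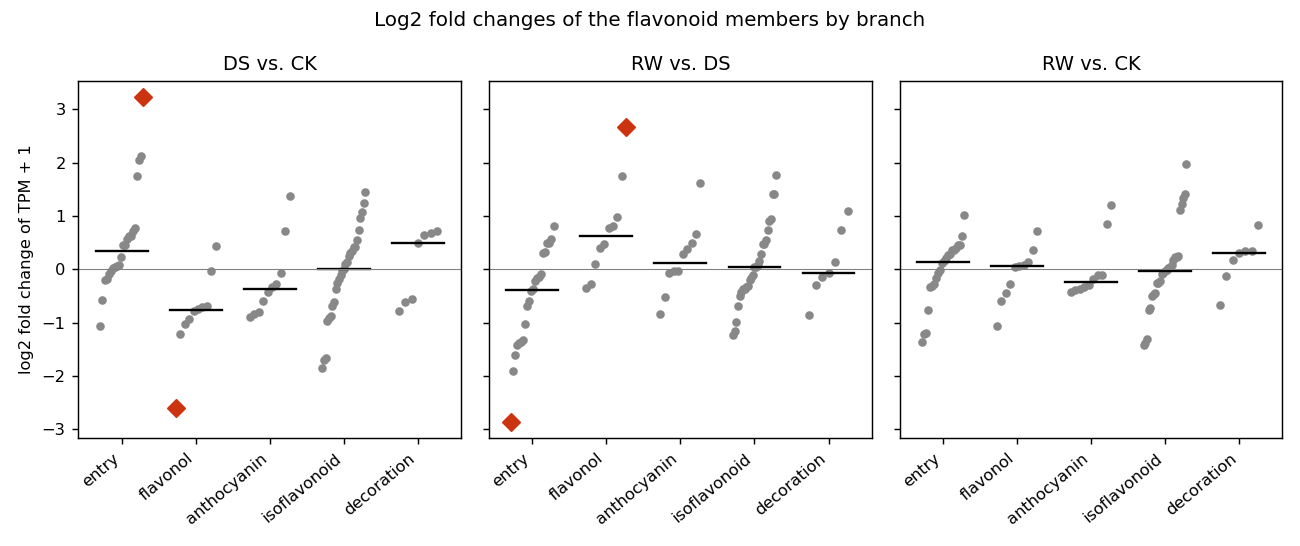
Log2 fold change of TPM + 1 (y axis) of each of the 76 members by branch (x axis) in the 3 comparisons; black lines are branch medians and red diamonds the members called by limma. CHS9 among the entry steps and CYP75B2 in the flavonol and flavone branch are the called members in DS vs. CK and RW vs. DS, and RW vs. CK has none.

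The entry steps held the most abundant member. Chalcone synthase, the enzyme that commits coumaroyl-CoA to flavonoids, was represented by 14 unigenes of 5 components, and CHS (TRINITY_DN21696_c0_g4, 1471 bp) made 78.5% to 88.6% of their summed TPM in every library. Its abundance was 635, 665 and 375 TPM in CK, 505, 1040 and 982 in DS and 275, 418 and 278 in RW. The DS range overlapped that of CK, while all 3 RW libraries lay below all 3 DS libraries. The means were 558 ± 159, 842 ± 294 and 324 ± 81.8 TPM (SD, n = 3 each). The log2 fold change was 0.57 in DS vs. CK (95% interval −0.20 to 1.33, limma adjusted p = 0.392) and −1.33 in RW vs. DS (−2.10 to −0.57, adjusted p = 0.0639), so that neither was called. Without DS replicate 1, the lowest DS library, the latter was −1.67 with an adjusted p of 0.0323. Leaving out DS replicate 2 or 3, or RW replicate 1 or 3, gave −1.15, −1.19, −1.23 and −1.24 (adjusted p from 0.169 to 0.183).

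A pair of shorter, mid-abundance chalcone synthases was low in RW against both other groups. CHS1 (TRINITY_DN21136_c1_g4, 668 bp) had 57.8, 51.1 and 27.7 TPM in CK, 37.3, 30.1 and 76.3 in DS and 14.7, 16.5 and 17.8 in RW. CHS5 (TRINITY_DN22399_c0_g4, 764 bp) had 39.6, 34.55 and 26.5 TPM in CK, 24.1, 35.7 and 67.85 in DS and 13.0, 17.6 and 11.6 in RW. In both, RW lay wholly below CK and DS, and DS replicate 3 was the highest library. In RW vs. DS the log2 fold change was −1.38 for CHS1 (adjusted p = 0.0714) and −1.43 for CHS5 (adjusted p = 0.0545), and in RW vs. CK −1.36 and −1.20 (adjusted p = 0.696 and 0.719). None of these passed the adjusted threshold. CHS5 in RW vs. DS did pass it without DS replicate 1 (−1.76, adjusted p = 0.0289), but not with any other library left out.

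The chalcone synthase that rose in drought was one of the less abundant. CHS9 (TRINITY_DN22399_c0_g7, a 397 bp unigene closest to Medicago sativa chalcone synthase 9) had 0.82, 1.20 and 0.00 TPM in CK, 9.04, 42.1 and 6.55 in DS and 0.85, 1.14 and 1.15 in RW. Every DS library lay above every CK and RW library, and DS replicate 2 was the highest by far. The log2 fold change was 3.22 in DS vs. CK (SE 0.62, limma adjusted p = 0.0189) and −2.86 in RW vs. DS (SE 0.62, adjusted p = 0.0333). Leaving out DS replicate 2 gave 2.45 (adjusted p = 0.0268) and −2.09 (adjusted p = 0.053), and leaving out CK replicate 3, where the unigene is listed at 0, gave 2.89 in DS vs. CK (adjusted p = 0.0738). The call in RW vs. DS was also lost without CK replicate 1, DS replicate 1 or any 1 of the RW libraries (adjusted p from 0.0508 to 0.097), and was −2.90 with an adjusted p of 0.0814 without RW replicate 2.

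Another 3 chalcone synthases had DS wholly above CK without being called. CHS4-2 (TRINITY_DN21136_c1_g2) had 0.92, 5.77 and 3.38 TPM in CK, 10.8, 27.5 and 11.1 in DS and 7.95, 1.74 and 4.87 in RW (DS vs. CK 2.06, adjusted p = 0.079). CHS6-4 (TRINITY_DN22399_c0_g1), from the same component as CHS9, had 1.83, 0.52 and 1.12 TPM in CK, 4.11, 28.75 and 3.88 in DS and 2.83, 1.52 and 0.48 in RW (2.12, adjusted p = 0.118). CHS4 (TRINITY_DN14773_c0_g1) had 2.82, 9.39 and 6.83 TPM in CK, 12.8, 35.65 and 21.96 in DS and 14.1, 4.33 and 7.30 in RW (1.74, adjusted p = 0.0857). DS replicate 2 was the highest library for each of these as well. The other 7 chalcone synthases, of 214 to 1323 bp, had DS vs. CK log2 fold changes from −1.06 to 0.77, and DS and CK overlapped in each. One of them, a second CHS1 (TRINITY_DN22399_c0_g6), had RW wholly below CK, at 0.21 to 0.28 against 0.80 to 2.79 TPM. In the class as a whole, 4 of 14 lay wholly higher in DS than in CK (8.86% of all tested unigenes did) and 6 of 14 wholly lower in RW than in DS (8.01% of all tested). The summed TPM was 458 to 780 in CK, 611 to 1256 in DS and 333 to 472 in RW, and CHS made 79.9% of the difference between the DS and CK means.

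Chalcone isomerase and chalcone reductase, the latter a legume enzyme that acts with chalcone synthase to give deoxychalcones, had 0 of 8 members called in any comparison (limma), and also 0 at an unadjusted p under 0.05 with the same fold limit. The most abundant unigene of the isomerase class, CHI3 (TRINITY_DN19590_c0_g1), is described only as a probable isomerase. CHI3 had 67.0, 72.5 and 64.7 TPM in CK, 82.9, 57.9 and 78.2 in DS and 62.8, 50.3 and 49.7 in RW. RW lay wholly below CK here by a narrow margin (log2 fold change −0.33, 95% interval −0.77 to 0.11), and the difference was not called. CHI2 (TRINITY_DN20689_c1_g2) was between 12.2 and 26.5 TPM in 8 libraries and at 99.3 in DS replicate 2. The most abundant reductase (TRINITY_DN24812_c0_g1) ranged from 15.5 to 50.7 TPM with overlapping groups (DS vs. CK −0.04, −0.93 to 0.85), and its sign turned with the scaling.

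The feeding steps outside the members were tested in the same fit. Of 23 phenylpropanoid entry unigenes, 0 were called in DS vs. CK (limma). At an unadjusted p under 0.05 with the same fold limit 3 were higher and 2 lower, against 5.34% and 8.94% of all tested. In RW vs. DS 2 were called higher and 2 lower (limma, 8.70% each way, against 1.79% and 2.15% of all tested). The median log2 fold changes were 0.17 and −0.40. PAL17.1 (TRINITY_DN24627_c0_g2), a phenylalanine ammonia-lyase, had 162, 230 and 147 TPM in CK, 232, 368 and 351 in DS and 119.5, 113 and 93.4 in RW. It fell by 1.52 on the log2 scale in RW vs. DS (adjusted p = 0.00957), and DS vs. CK was 0.81 (adjusted p = 0.096). CYP73A3 (TRINITY_DN24106_c1_g2), the cinnamate 4-hydroxylase and the only tested unigene of that step, had 75.7, 167 and 84.6 TPM in CK, 256, 215 and 203 in DS and 65.1, 41.9 and 43.0 in RW. Each DS library exceeded each CK library, which in turn exceeded each RW library. It fell by 2.17 in RW vs. DS (adjusted p = 0.00472), while DS vs. CK was 1.12 (adjusted p = 0.0703) and RW vs. CK −1.05 (adjusted p = 0.724). The unigenes that rose in RW vs. DS were both 4CLL7, a 4-coumarate-CoA ligase-like protein whose substrate the annotation does not give (1.59 and 1.49).

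In the flavonol and flavone branch, 1 of 10 members fell in DS vs. CK (2.57% of all tested unigenes did) and the same unigene, whose place in the pathway is uncertain, rose in RW vs. DS (1.79% of all tested). The median log2 fold change was −0.76 in DS vs. CK and 0.62 in RW vs. DS, against −0.19 and 0.17 over all tested unigenes, and it kept its sign under both of those scalings. CYP75B2 (TRINITY_DN22788_c0_g3, 2149 bp) had 62.1, 57.7 and 56.9 TPM in CK, 12.4, 7.16 and 7.66 in DS and 56.8, 49.6 and 81.7 in RW. All DS libraries lay far below the other 6, and RW and CK overlapped. The log2 fold change was −2.61 in DS vs. CK (SE 0.25, limma adjusted p = 0.000517), 2.67 in RW vs. DS (SE 0.25, adjusted p = 0.000497) and 0.06 in RW vs. CK (95% interval −0.51 to 0.62). On its annotation, SwissProt's closest entry is the Petunia flavonoid 3'-monooxygenase, which adds a hydroxyl group to the B ring, but the protein description is geraniol 8-hydroxylase, a monoterpenoid enzyme, and no KEGG entry is given. The xylem and secondary wall markers given above were also lower in DS than in CK, and their part in this result was not tested.

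The other 4 flavonoid hydroxylases (418 to 1622 bp), which also carry the symbol CYP75B2 and are described as flavonoid 3'-monooxygenase, had log2 fold changes from −0.93 to −0.70 in DS vs. CK, and none was called. The most abundant of them (TRINITY_DN20054_c0_g3) had 31.1, 85.9 and 41.7 TPM in CK, 14.2, 57.3 and 30.4 in DS and 27.3, 24.9 and 45.9 in RW, with overlapping groups. The summed TPM of the 5 hydroxylases was 129 to 220 in CK, 55.3 to 99.4 in DS and 116 to 170 in RW, and DS lay wholly below both. The uncertain CYP75B2 unigene made 54.2% of the difference between the CK and DS means and 79.5% of that between RW and DS. In the sum of the other 4 hydroxylases alone, DS overlapped both CK and RW.

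Flavonol synthase, which oxidises dihydroflavonols to flavonols, was the protein description of 5 members, with 0 calls (limma). In 3 of them SwissProt's closest entry is another enzyme: a DMR6-like oxygenase (TRINITY_DN17658_c0_g1), SRG1 (TRINITY_DN17884_c0_g3) and 1-aminocyclopropane-1-carboxylate oxidase, an enzyme of ethylene synthesis (TRINITY_DN25641_c0_g4). At an unadjusted p under 0.05 with the same fold limit 1 was lower in DS vs. CK (8.94% of all tested) and 1 higher in RW vs. DS (7.07%). FL (TRINITY_DN16981_c0_g1), the most abundant, had 43.8, 70.25 and 35.2 TPM in CK, 28.1, 98.5 and 96.6 in DS and 61.4, 33.2 and 62.3 in RW. DS held both the lowest and the highest library. A 314 bp unigene (TRINITY_DN17884_c0_g1) had 25.8 to 43.6 TPM in CK, 18.8 to 24.0 in DS and 29.4 to 57.4 in RW, so that DS lay wholly below both groups (DS vs. CK −0.69, adjusted p = 0.223, and RW vs. DS 0.82, adjusted p = 0.174). The unigene with the oxidase match (TRINITY_DN25641_c0_g4), whose KEGG entry is also outside flavonoids, was at or below 0.28 TPM in DS and between 1.42 and 3.97 in RW (RW vs. DS 1.75, adjusted p = 0.0729).

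The anthocyanin and proanthocyanidin branch had 0 of 10 members called in any comparison (limma). At an unadjusted p under 0.05 with the same fold limit, 1 was higher in RW vs. DS (7.07% of all tested). Dihydroflavonol reductase, which makes leucoanthocyanidins, was led by DFRA (TRINITY_DN18540_c0_g1) with 21.9, 19.1 and 17.6 TPM in CK, 27.1, 0.22 and 46.5 in DS and 13.2, 12.6 and 17.5 in RW. DS replicate 2 was nearly without it, while the other DS libraries exceeded all CK libraries. The DS vs. CK log2 fold change was −0.80 (95% interval −3.23 to 1.64, adjusted p = 0.734) with that library and 0.84 (adjusted p = 0.166) without it. DFR (TRINITY_DN16612_c0_g1) had 0.24, 5.74 and 3.78 TPM in CK, 0.78, 1.16 and 3.37 in DS and 4.45, 8.87 and 8.04 in RW, and all RW libraries lay above all DS libraries (RW vs. DS 1.62, adjusted p = 0.21). The annotations of this class are mixed. DFRA is described as reductase-like and shares its KEGG entry with BAN, an anthocyanidin reductase below. TRINITY_DN19046_c1_g1 is described as a tetraketide alpha-pyrone reductase and is counted here through its SwissProt match to dihydroflavonol reductase.

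ANS (TRINITY_DN22845_c0_g4), the single leucoanthocyanidin dioxygenase, which forms anthocyanidins, had 9.04, 2.33 and 2.75 TPM in CK, 4.71, 1.23 and 0.52 in DS and 1.12, 3.13 and 5.27 in RW, with overlapping groups. Anthocyanidin reductase leads to proanthocyanidins, the condensed tannins, and was represented by a 1039 bp unigene and 3 short ones. The long one (TRINITY_DN20548_c0_g1) had 86.5, 86.5 and 107 TPM in CK, 80.55, 302 and 150 in DS and 76.45, 46.1 and 179 in RW. Its DS libraries held the highest value of all, in replicate 2, but overlapped CK (0.72, 95% interval −0.47 to 1.92).

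The 3 short anthocyanidin reductase unigenes (component TRINITY_DN11017_c0, 204 to 256 bp) were on in a single library of each group. BAN (TRINITY_DN11017_c0_g1) had 8.10 TPM in CK replicate 3, 6.91 in DS replicate 1 and 6.31 in RW replicate 2 and was listed at 0 in the other 6 libraries. TRINITY_DN11017_c0_g2 had 7.71, 5.29 and 6.28 TPM in those 3 libraries and at most 0.60 elsewhere, and TRINITY_DN11017_c0_g3 had 9.19, 5.73 and 2.72 and at most 0.68 elsewhere. The pattern crossed the groups, and no comparison of group means describes it.

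**Figure D2:**
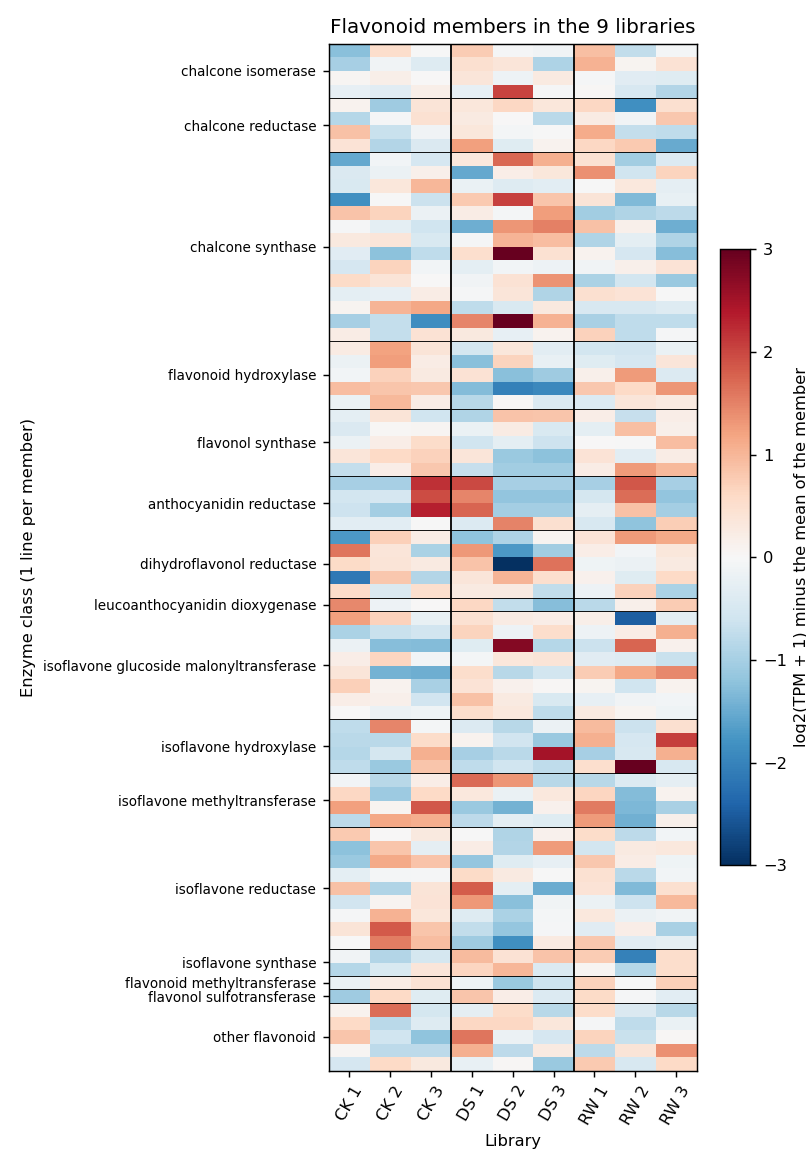
Each line is a member, grouped by enzyme class on the y axis, and each column a library; color is log2(TPM + 1) minus the mean of the member over the 9 libraries, limited to −3 and 3. Most lines show no block by group, the short anthocyanidin reductases stand out in 3 libraries of different groups, and DS replicate 2 holds the darkest cells among the chalcone synthases.

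The isoflavonoid branch was the largest, with 27 members, among them 3 described as PCBER (phenylcoumaran benzylic ether reductase, of lignan metabolism), and 0 of them were called in any comparison (limma). At an unadjusted p under 0.05 with the same fold limit 1 was higher and 3 lower in DS vs. CK (5.34% and 8.94% of all tested). In RW vs. DS 1 was higher (7.07%), and in RW vs. CK 2 were higher and 2 lower (1.94% and 2.4%). Its median log2 fold change was 0.01 in DS vs. CK, 0.04 in RW vs. DS and −0.03 in RW vs. CK, and in the last 2 the sign depended on the scaling. Summed over the branch, CK libraries had 733 to 860 TPM, DS 612 to 890 and RW 527 to 871, with overlap throughout.

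Isoflavone synthase, the cytochrome P450 that moves the aryl ring and opens the isoflavonoid route, was carried by CYP93C2 (TRINITY_DN19845_c0_g2, 1894 bp). It had 46.45, 26.7 and 34.2 TPM in CK, 96.7, 67.4 and 91.55 in DS and 85.8, 11.4 and 72.2 in RW. All DS libraries exceeded all CK libraries, and RW was split between replicates 1 and 3, near the DS range, and replicate 2, the lowest of the 9. The log2 fold change in DS vs. CK was 1.25 (95% interval −0.15 to 2.65, limma adjusted p = 0.297). It was called at the same value without RW replicate 2 in the shared fit (adjusted p = 0.0247) or with only the CK and DS libraries (adjusted p = 0.0464). With any other library left out it was not called (adjusted p from 0.259 to 0.517). Nor was it called after median-of-ratios scaling (adjusted p = 0.234) or quantile normalization (adjusted p = 0.353). In RW vs. DS it was −0.99 with RW replicate 2 and −0.10 without it (adjusted p = 0.448 and 0.9).

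After isoflavone synthase, a dehydratase completes the isoflavone. HIDH (TRINITY_DN21278_c1_g2), annotated as 2-hydroxyisoflavanone dehydratase and outside the text rule, had 53.9, 46.1 and 36.6 TPM in CK, 25.0, 16.0 and 25.3 in DS and 92.6, 61.15 and 66.1 in RW. The 3 groups did not overlap, with DS lowest and RW highest. It rose in RW vs. DS (1.69, adjusted p = 0.0061), and in DS vs. CK it was −1.02 with an adjusted p of 0.0502, just short of a call. Of 5 tested unigenes of this list HIDH was the one called in RW vs. DS (1.79% of all tested were called higher). HIDH is of the same Trinity component as TRINITY_DN21278_c1_g3 and TRINITY_DN21278_c1_g5, counted below among the isoflavone reductases. It can share reads with them, so their values are not independent. The 2 tested vestitone reductases, which act late in pterocarpan synthesis, were not called, also not at an unadjusted p under 0.05 with the fold limit.

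Among 4 isoflavone O-methyltransferases, the most abundant (TRINITY_DN21176_c0_g1, described as isoflavone-7-O-methyltransferase 9) had 55.2, 24.4 and 86.1 TPM in CK, 10.0, 8.04 and 25.3 in DS and 70.15, 8.48 and 11.4 in RW. CK and DS overlapped by a small margin and RW replicate 1 alone was in the upper CK range (DS vs. CK −1.86, 95% interval −3.56 to −0.15, adjusted p = 0.204). The class summed to 55.5 to 128 TPM in CK, 29.1 to 46.4 in DS and 15.8 to 115 in RW.

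Isoflavone hydroxylases of the CYP81E family, which act ahead of isoflavone reductase, were low, with a summed 7.35 to 26.1 TPM in CK, 8.77 to 16.8 in DS and 31.4 to 56.7 in RW. All RW libraries exceeded all others in this sum. The unigenes behind it differed by library: CYP81E9 (TRINITY_DN14560_c0_g1) had 23.9, 7.49 and 49.7 TPM in RW and 4.55 to 16.6 elsewhere, and a second CYP81E9 (TRINITY_DN23389_c0_g1) had 28.8 TPM in RW replicate 2 and at most 4.94 in every other library. Neither was called in RW vs. DS (1.40 and 1.77, adjusted p = 0.282 and 0.312).

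Isoflavone reductase reduces hydroxylated isoflavones on the way to pterocarpans. IFR (TRINITY_DN19245_c0_g1), the unigene that matches the named enzyme, had 82.2, 23.3 and 58.6 TPM in CK, 160, 36.05 and 15.1 in DS and 59.1, 17.2 and 62.5 in RW, and DS held both the highest and the lowest library. The most abundant unigene of the class (TRINITY_DN21278_c1_g3) was described as PCBER, as were TRINITY_DN12768_c0_g1 and TRINITY_DN12768_c0_g2, and is counted in the branch through its name alone. TRINITY_DN21278_c1_g3 had 146, 310 and 188 TPM in CK, 113, 77.0 and 143 in DS and 185, 132 and 139 in RW. DS lay wholly below CK (−0.92, 95% interval −1.64 to −0.20, adjusted p = 0.138), which was not a call, and another reductase-like unigene (TRINITY_DN21278_c1_g5) did so at 0.00 to 1.20 against 1.96 to 7.01 TPM (−1.67, adjusted p = 0.093). TRINITY_DN24445_c0_g2 had 4.46, 14.7 and 9.33 TPM in CK, 1.61, 0.52 and 5.53 in DS and 8.47, 3.29 and 3.53 in RW, where DS and CK overlapped (−1.70, adjusted p = 0.142). TRINITY_DN16872_c0_g2 had DS wholly above CK (0.41, adjusted p = 0.548).

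The 8 isoflavone glucoside malonyltransferases, which add malonyl groups to isoflavone sugars, were abundant as a class (193 to 388 TPM in CK, 233 to 427 in DS and 250 to 293 in RW). PMAT1 (TRINITY_DN25874_c1_g1), the most abundant, had 99.96, 97.9 and 58.55 TPM in CK, 161, 105 and 63.2 in DS and 73.8, 81.1 and 82.1 in RW, without separation of the groups. A 267 bp unigene (TRINITY_DN25642_c0_g2) had 9.19, 1.96 and 1.86 TPM in CK, 10.4, 3.43 and 4.36 in DS and 12.4, 16.8 and 20.6 in RW. RW was wholly above both groups (RW vs. CK 1.97, 95% interval 0.77 to 3.16, adjusted p = 0.696). Another PMAT1 (TRINITY_DN14517_c0_g5, 544 bp) had 1.68, 2.23 and 2.44 TPM in CK, 7.16, 3.64 and 6.41 in DS and 3.66, 5.04 and 9.73 in RW, so that DS and RW lay wholly above CK (1.08 and 1.11, adjusted p = 0.144 and 0.745).

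**Figure D3:**
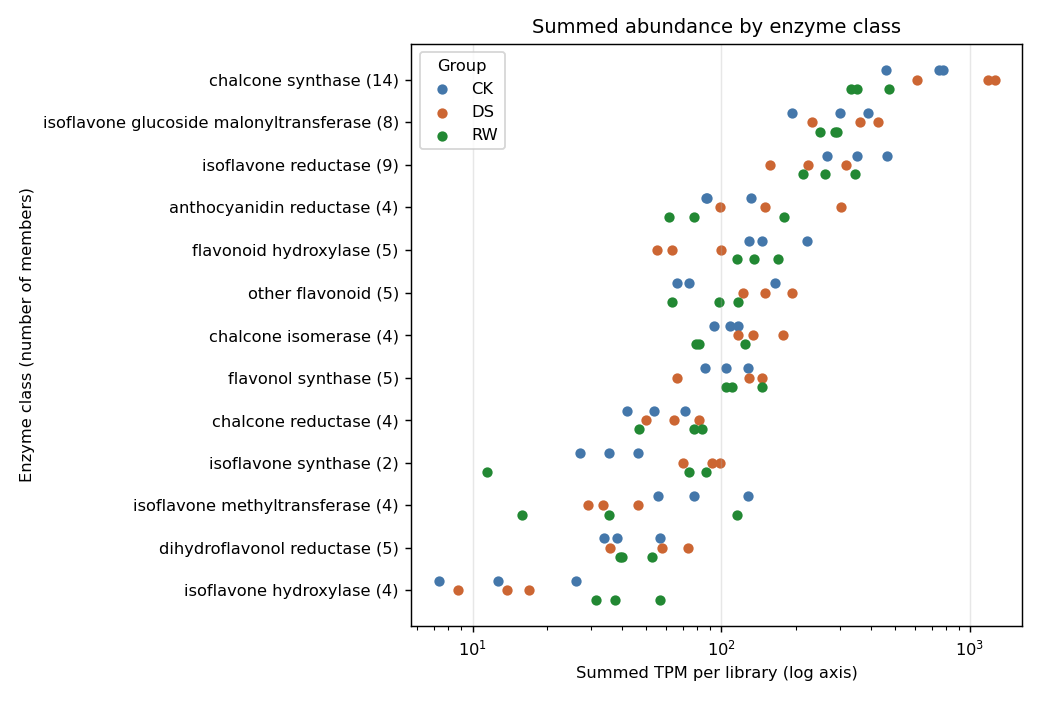
Summed TPM (log x axis) of each enzyme class with more than 1 member (y axis, member number in brackets); each point is a library, colored by group. Chalcone synthase is the most abundant class, and RW lies above both other groups for the isoflavone hydroxylases. DS lies apart from CK and RW for the flavonoid hydroxylases, whose sum includes the uncertain CYP75B2 unigene.

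Of the 7 decoration and remaining members, 0 were called (limma), and 1 was higher in RW vs. DS at an unadjusted p under 0.05 with the fold limit (7.07% of all tested). They comprised 4 acyltransferases matched to anthocyanin enzymes, which attach acyl groups to anthocyanin sugars, a sulfotransferase, a methyltransferase and F3H (TRINITY_DN3186_c0_g1, 208 bp), a flavanone 3-hydroxylase fragment that belongs by its annotation to the step before dihydroflavonols and stayed at or below 2.71 TPM. 5MAT (TRINITY_DN18603_c0_g1), described as a phenolic glucoside malonyltransferase, had 129, 47.8 and 65.3 TPM in CK, 132, 130 and 109 in DS and 82.9, 50.0 and 73.4 in RW, and all DS libraries exceeded all RW libraries (RW vs. DS −0.86, adjusted p = 0.221). FAOMT (TRINITY_DN18300_c0_g3), which methylates the B ring of anthocyanins in Vitis, had 8.70, 11.96 and 13.9 TPM in CK, 9.16, 4.16 and 6.16 in DS and 16.95, 10.0 and 17.2 in RW (RW vs. DS 1.09, adjusted p = 0.104). The sulfotransferase (TRINITY_DN14362_c0_g3) stayed at or below 2.81 TPM.

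Of 74 tested unigenes for flavonoid glycosylation, flavanone 3-hydroxylation, the dehydratase step, vestitone reduction, regulators and carriers, 5 rose and 1 fell in DS vs. CK, and 1 rose and 3 fell in RW vs. DS (limma). These are 6.76% and 1.35% in DS vs. CK, beside the 2.39% and 2.57% over all tested unigenes. In RW vs. DS they are 1.35% and 4.05%, beside 1.79% and 2.15%. No test compares the list with the shares of all tested. In RW vs. CK 0 were called (limma), and 0 passed at an unadjusted p under 0.05 with the fold limit. The median log2 fold change was 0.23 in DS vs. CK and −0.38 in RW vs. DS. The 4 tested flavanone 3-hydroxylases were not called (limma). At an unadjusted p under 0.05 with the fold limit 1 was lower in DS vs. CK (8.94% of all tested).

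Of 52 flavonoid glycosyltransferases, which attach sugars, 3 rose in DS vs. CK (5.77%, against 2.39% of all tested unigenes). UGT73B4 (TRINITY_DN24894_c1_g2, described as a flavonoid 3-O-glucosyltransferase) had 101, 200.4 and 50.25 TPM in CK, 411, 1107 and 453 in DS and 116, 78.3 and 114 in RW. All DS libraries lay above the rest (DS vs. CK 2.54, SE 0.51, adjusted p = 0.0227, and RW vs. DS −2.53, adjusted p = 0.0247). GT3 (TRINITY_DN21572_c0_g9) rose to 94.3, 67.3 and 169 TPM in DS from 11.6 to 28.5 in CK (2.39, adjusted p = 0.029), and GT6 (TRINITY_DN21588_c0_g7) to 30.5, 21.1 and 60.02 from 3.63 to 10.4 (2.38, adjusted p = 0.0289). Neither GT3 nor GT6 was called in RW vs. DS (−1.80 and −1.84, adjusted p = 0.0899 and 0.083). The pair share a description and may share reads. The whole list summed to 1082 to 1297 TPM in CK, 2506 to 3021 in DS and 1208 to 1284 in RW.

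Among 11 regulators and carriers, 2 rose and 1 fell in DS vs. CK (2.39% and 2.57% of all tested unigenes). Both that rose carry the symbol MYB4, in Arabidopsis a repressor of cinnamate 4-hydroxylase, but are described as the transcription factors WER and MYB13, so that their function is uncertain. TRINITY_DN14178_c0_g1 had 1.04, 0.94 and 0.44 TPM in CK, 58.9, 114 and 41.0 in DS and 2.93, 1.88 and 0.52 in RW. TRINITY_DN19835_c0_g2 had 2.46, 0.64 and 0.62 TPM in CK, 64.5, 155 and 58.6 in DS and 2.87, 1.41 and 0.73 in RW. Both were high in every DS library and near 0 elsewhere (DS vs. CK 5.21 and 5.34, adjusted p = 0.000287 and 0.000351, and RW vs. DS −4.68 and −5.07). The unigene that fell, TRINITY_DN20746_c0_g3, carries the symbol MYB114 of an anthocyanin activator but is described as the transcription factor MYB1. Its function is likewise uncertain. It was low throughout and fell from 1.73, 2.00 and 3.21 TPM in CK to 0.18, 0.05 and 0.22 in DS (−1.50, limma adjusted p = 0.0409).

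**Figure D4:**
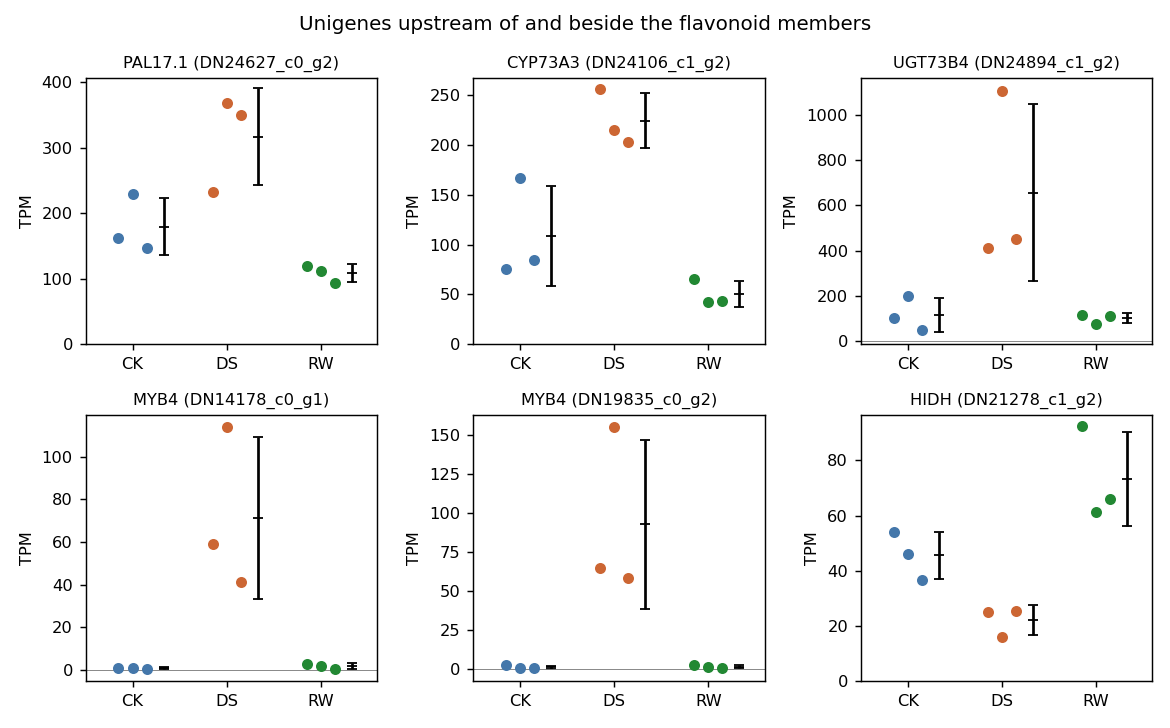
TPM (y axes with different scales) of 6 unigenes upstream of or beside the members in the 3 libraries of CK, DS and RW; points are replicates 1 to 3 and bars are the mean ± SD. PAL17.1 and CYP73A3 have their lowest values in RW, UGT73B4 and both MYB4 unigenes are high in all 3 DS libraries, and HIDH is lowest in DS and highest in RW.

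Part of the spread among members lay in single libraries. DS replicate 2 was the highest library at more than 2 times the next for 5 members (6.58%, against 1.67% of all tested unigenes): CHS9, CHS6-4, CHS4-2, CHI2 and a malonyltransferase (TRINITY_DN23264_c0_g2, 39.7 TPM against 19.1 in the next). CK replicate 2 was so for 3 members and RW replicate 2, which stood apart in the table as a whole, for 1. The members summed to 1877 to 2373 TPM in CK, 2204 to 2859 in DS and 1543 to 1910 in RW, and CHS made 69.4% of the difference between the DS and RW means.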

How the data were processed

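Leaf RNA of 9 M. ruthenica libraries, 3 each of CK, DS and RW, had been sequenced, and the authors deposited 1 table of TPM values for 52457 unigenes with lengths and annotations. The methods of the study give Cutadapt for trimming, Trinity for de novo assembly, Salmon for TPM and DIAMOND for annotation. The submitters' processing notes also name HISAT2 2.0 and StringTie 1.3.0, without a role. TPM holds no read counts, so no counting interval is given and a count model was not used. The study gives read totals for the libraries, which were not used here. A unigene split over several contigs, or close copies, can share reads.

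The 44538 unigenes that reached 1 TPM in 3 or more libraries were tested on log2(TPM + 1) with limma 3.58.1 in R 4.3.3, with 1 mean per group over the 9 libraries, an intensity trend and robust moderation (statmod 1.5.0). Fold changes are on that scale, which understates the change of low unigenes. Benjamini-Hochberg adjustment ran over all tested unigenes, and a call needed an adjusted p under 0.05 and a log2 fold change beyond 1. No test used the members alone. With 3 libraries against 3, an exact permutation test of a single unigene cannot go below p = 0.1, so none was run. The method was tested on simulated data for DS vs. CK (44538 unigenes, changes planted among those above about 5 TPM): it recovered 0% of log2 changes of 1, 34% of 1.5, 68% of 2.5 and 90% of 4, with 5 false calls.

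The members, the lists of neighbouring steps and the marker lists were chosen with earlier results of these data known. The text names every called member, the most abundant member of each enzyme class, the 5 most abundant of all and called unigenes of the pathway lists (17 members by this rule), and other members were chosen after their values were seen. Marker lists are given as counts. Alternatives were a pseudocount of 0.1 or 5, no filter or a filter of 5 TPM, median-of-ratios scaling, quantile normalization, the replicate number as a block, a fit of the 6 libraries of a pair, an unadjusted p, and each library left out in turn. Python 3.11.15, pandas 2.3.3 and matplotlib 3.10.9 were used for selection and plots.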

Additional observations from a re-analysis of the deposited data

How the results depend on the processing

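The CYP75B2 calls held in all 18 alternatives of both DS vs. CK (−2.83 to −2.20) and RW vs. DS (2.26 to 2.89). The CHS9 call held in 16 of 18 in DS vs. CK (1.80 to 4.80) and in 9 of 18 in RW vs. DS (−3.59 to −1.70). Not all of these alternatives could differ. A changed filter, the block, the fit of a pair and the unadjusted p keep the fold change by design. So does leaving out a library of the group outside the comparison. The unadjusted p cannot lose a call made at the adjusted p. In DS vs. CK, where 1 member was higher and 1 lower, the number of members called higher was 0 with a pseudocount of 5 (CHS9 1.80, limma adjusted p = 0.0515), 2 after quantile normalization (with CHS4-2, 2.23, adjusted p = 0.0448), 2 in the fit of the 6 libraries of the pair (with CYP93C2) and 5 at an unadjusted p under 0.05, which called 6 lower. In RW vs. DS, with 1 higher and 1 lower, the number called lower was 0 with a pseudocount of 0.1 (CHS9 −3.59, adjusted p = 0.0918) or 5 (−1.70, adjusted p = 0.0724) and in the fit of the pair (adjusted p = 0.0666), 2 with a filter of 5 TPM or quantile normalization (with CHS5) and 7 at an unadjusted p, which called 5 higher. In RW vs. CK, with 0 in each direction, an unadjusted p called 2 higher and 6 lower. Leaving out a library gave 0 to 2 higher and 1 to 1 lower in DS vs. CK, 1 to 1 higher and 0 to 2 lower in RW vs. DS, and 0 to 0 in RW vs. CK. In DS vs. CK it was 0 higher without CK replicate 3, and 2 without CK replicate 2 (with TRINITY_DN19046_c1_g1, described as a tetraketide alpha-pyrone reductase, 2.14, adjusted p = 0.0399) or RW replicate 2 (with CYP93C2). In RW vs. DS it was 0 lower without CK replicate 1, DS replicate 2 or any 1 RW library, and 2 without DS replicate 1 (CHS and CHS5). The cause was not tested.

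The 17 members named by the rule gave 912 values under the alternatives, of which 866 kept their sign and side of the threshold, 11 lost a call, 6 gained one and 29 changed sign. The 866 include values that, as said above, the alternative could not move. None of the values that changed sign had been called (log2 fold change at most 0.80 in size, adjusted p at least 0.671). The chalcone reductase TRINITY_DN24812_c0_g1 in DS vs. CK was 0.14 with median-of-ratios scaling and 0.039 with quantile normalization, and DFRA in RW vs. DS was −0.087 with a pseudocount of 5. Leaving out a library gave in DS vs. CK −0.49 to 0.28 for CYP81E9 (TRINITY_DN14560_c0_g1), −1.80 to 0.84 for DFRA, −0.014 to 0.24 for CHI3, −0.39 to 0.28 for TRINITY_DN24812_c0_g1 and −0.027 to 0.64 for PMAT1 (TRINITY_DN25874_c1_g1). In RW vs. CK it gave −0.048 to 0.78 for TRINITY_DN14362_c0_g3, −0.14 to 0.37 for FL, −0.45 to 0.26 for 5MAT, −0.25 to 1.15 for CYP93C2, −0.64 to 0.33 for TRINITY_DN20548_c0_g1, −0.15 to 0.21 for CYP75B2, −0.76 to 0.11 for ANS and −0.32 to 0.059 for PMAT1. In RW vs. DS it gave −0.45 to 0.17 for TRINITY_DN14362_c0_g3, −1.26 to 1.38 for DFRA and −0.35 to 1.10 for TRINITY_DN21176_c0_g1.

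With the replicate number as a block, limma called the same numbers of members (1 higher and 1 lower in DS vs. CK and in RW vs. DS, 0 in RW vs. CK), while over all tested unigenes it called 837 higher and 727 lower in DS vs. CK (1066 and 1143 without the block) and 567 and 767 in RW vs. DS (798 and 957 without it). Deviations of same-numbered libraries correlated at −0.09 to 0.06, and those of libraries with different numbers at −0.08 to 0.09. With 3 libraries per group, this cannot show whether same-numbered libraries share more than a number. Of the calls over all tested unigenes in DS vs. CK, median-of-ratios scaling gave 1338 higher and 768 lower, and quantile normalization 1222 and 782.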
